A study of Homo sapiens with 8 samples.

Results

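Imprinted genes are a class of mammalian genes transcribed mainly from the maternal or mainly from the paternal copy. They lie in clusters, each under a control region that carries DNA methylation from only the egg or only the sperm, and that methylation is kept through early development by zinc finger proteins, KAP1 and the maintenance DNA methyltransferase. Cultured human embryonic stem cells (hESCs) can lose this methylation, and a cluster then gains or loses a transcript, so these genes are often read as a check of a stem cell line.

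The set described here was a list of 35 imprinted genes given by name, of which 34 were matched to an Ensembl identifier among the 57773 genes counted. HYMAI was the listed gene with no match and is not analysed here. Of the 34, 26 passed the filter on low counts and were tested with 23474 genes in all, and 8 stayed below it. The RNA-seq libraries came from H9, an established hESC line, in 4 groups of 2. WT cells were untreated and carried an HA tag on endogenous CHD7, which was itself inserted by CRISPR-Cas9. HERVH knockdown cells had the same tagged genotype and were given LNA-GapmeRs, antisense oligonucleotides that direct RNase H to the RNA of HERVH (human endogenous retrovirus H), for 24 h before harvest; they were compared with untreated WT, so the oligonucleotide treatment and the loss of HERVH RNA cannot be told apart. CHD7 knockout cells (CHD7 -/-) and cells with 1 HERVH element deleted from chromosome 2 were made by CRISPR-Cas9 and were untreated. The knockout and element deleted lines were grown out from edited cells, the labels do not say from which clone each library came, and editing and clonal growth cannot be told apart in them.

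Reads assigned to genes ranged from 14802049 to 23156445 per library, so that 3 counts, used here as the floor, corresponded to 0.128 to 0.218 CPM (counts scaled to 1000000 reads on TMM-adjusted library sizes). CHD7 itself averaged 650 CPM in WT and 197 CPM in its knockout, for a log2 ratio of -1.72 (FDR = 2.25e-05, edgeR quasi-likelihood test). Summed pluripotency markers (POU5F1, SOX2, NANOG and 5 others) lay between 5073 and 6165 CPM in all 8 libraries, and of the markers of other cell types only a fibroblast list reached above 25 CPM. That list was carried by COL1A1 and COL1A2, lay between 148 and 253 CPM in 7 libraries and was 467 CPM in HERVH knockdown replicate 2, which was also the shallowest library; 2 of its 6 markers had at most 3 counts in every library. The labels do not state that replicates came from separate cultures, so the p-values measure the spread between these libraries, which may be technical.

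None of the imprinted genes met the definition of a switch used here, and the 13 most highly expressed ones stayed within 2-fold of WT. A switch was defined as at most 3 counts in both libraries of 1 group and at least 30 in both of the other. No imprinted gene met it when the knockout, the knockdown or the element deletion was set against WT, nor in CHD7 knockout against HERVH element deleted cells, beside 0.0298%, 0.00852%, 0.0213% and 0.0937% of all genes tested (7, 2, 5 and 22 genes). At such shares a set of this size would rarely hold a switch. Genes with fewer than 30 counts in a WT library, such as IGF2 and NAP1L5, could not be called lost. The counts are summed over both parental copies, so a change of the copy in use at an unchanged total would not be seen, and in bulk libraries fewer expressing cells and less RNA per cell cannot be told apart.

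**Figure D1:**
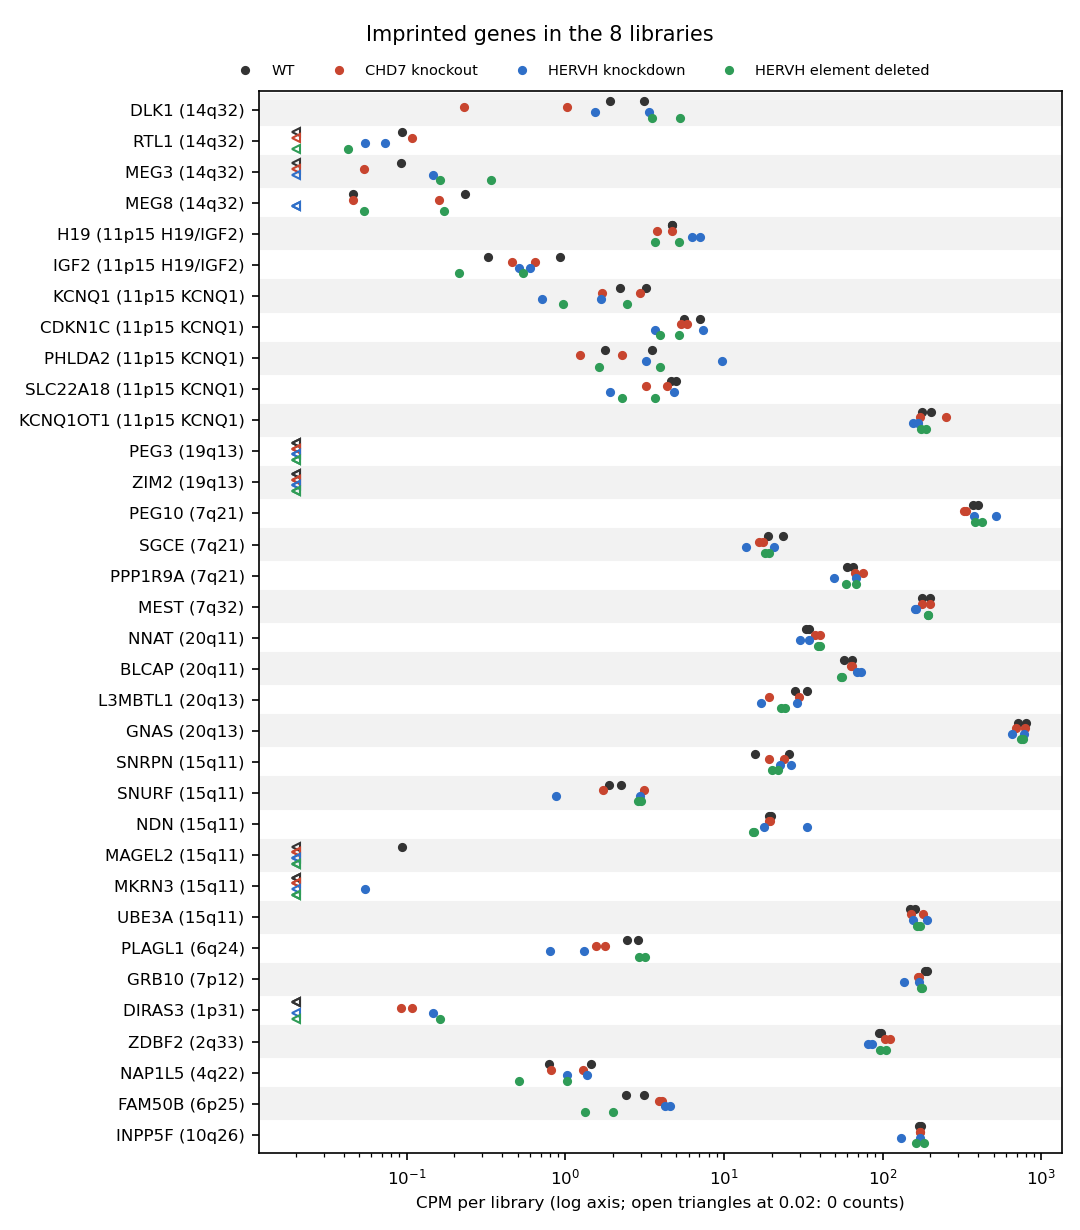
CPM of the 34 matched imprinted genes in each of the 8 libraries on a log axis, 1 gene per line with its cluster, coloured by group; open triangles at 0.02 mark libraries with 0 counts. PEG3 and ZIM2 were at 0 in all 8 libraries, whereas GNAS and PEG10 lay above 300 CPM in every one.

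No imprinted gene was a differentially expressed gene (DEG, FDR below 0.01 and at least 2-fold, edgeR quasi-likelihood test with Benjamini-Hochberg adjustment over all genes tested). In CHD7 knockout against WT 0 of 26 were DEGs, beside 0.571% of all genes tested, and 1 of 26 had an unadjusted p below 0.05, beside 10.9%. In HERVH knockdown against WT the DEG count was also 0 (background 0.217%), with 3 of 26 at an unadjusted p below 0.05 (background 19%). HERVH element deleted cells had 0 against WT (background 0.0298%) and 1 at an unadjusted p below 0.05 (background 2.63%). CHD7 knockout against HERVH element deleted cells gave 0 (background 1.12%) and 3 at an unadjusted p below 0.05 (background 12.2%). DESeq2 also called 0 of the 26 in the 3 comparisons with WT and called DLK1 in the 4th. These 4 comparisons share groups and are not independent of one another.

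The median log2 fold changes of the set were small, and single genes went both ways. Against WT, single genes lay between -2.04 and 0.52 in the knockout, -1.30 and 1.28 in the knockdown, and -0.76 and 0.80 in the element deletion. In CHD7 knockout against HERVH element deleted cells they lay between -2.85 and 1.27. The medians over the 26 genes were -0.0496, -0.0762 and -0.0355 in the knockout, the knockdown and the element deletion against WT, beside -0.0119, 0.0356 and -0.0191 over all genes tested. Of the 15 tested genes listed as paternally expressed, 7 were higher and 8 lower in CHD7 knockout cells than in WT (median -0.0106). Of the 7 listed as maternally expressed, 2 were higher and 5 lower (median -0.184). The other 4 were put in neither class, as genes expressed from different copies in different tissues or isoforms. Which copy any of these genes used in these cells was not measured. In HERVH element deleted cells the same classes had medians of 0.0259 and -0.0738. These are descriptions of fitted values, most of them from genes that did not pass the test.

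How small a change could be seen depended on the level of the gene. All 13 genes with a mean of at least 20 CPM had a 95% interval within 2-fold of no change in each of the 4 comparisons, and their log2 fold changes lay between -0.43 and 0.25. Of the 13 genes below 20 CPM, 4, 3, 4 and 3 had such an interval, and there the widest interval reached 1.62 log2 units to either side. A lack of a call therefore bounds the change in counts for genes such as GRB10 and ZDBF2, which overlap no annotated gene, and does not bound it for genes such as IGF2 and NAP1L5. Over the 26 genes, 65.4%, 61.5%, 65.4% and 61.5% had an interval within 2-fold in the 4 comparisons, beside 50.1%, 44.8%, 55.6% and 49.8% of all genes tested. Both libraries of a group lay wholly above or below both WT libraries for 10 of 26 genes in CHD7 knockout cells (38.5%, background 43.9%), for 9 in HERVH knockdown cells (34.6%, background 44.8%) and for 12 in HERVH element deleted cells (46.2%, background 38%). CHD7 knockout and HERVH element deleted libraries did not overlap for 9 genes (34.6%, background 49.1%).

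**Figure D2:**
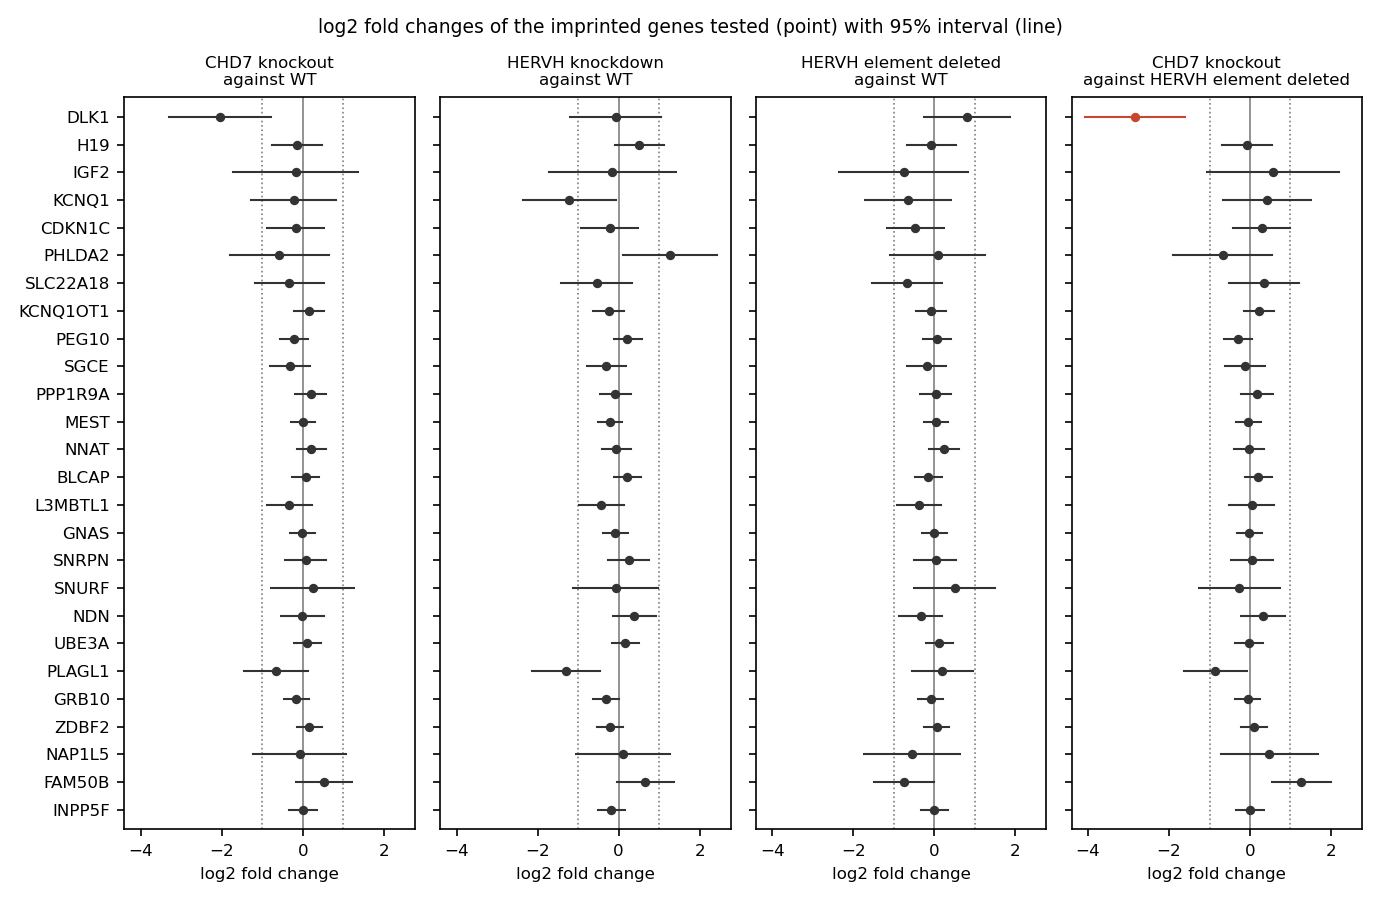
log2 fold change (point) and 95% interval (line) of the 26 imprinted genes tested, in 4 comparisons, with dotted lines at a 2-fold change. DLK1 in CHD7 knockout against HERVH element deleted cells, in red, is the point with FDR below 0.05, and the genes with at least 20 CPM cluster near 0.

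At 14q32, DLK1 and RTL1 are expressed from the paternal copy and the long noncoding RNAs MEG3 and MEG8 from the maternal copy. Both MEG3 and MEG8 had few counts in every library. MEG3 had 2 and 0 counts in WT, 0 and 1 in CHD7 knockout, 0 and 2 in HERVH knockdown, and 8 and 3 in HERVH element deleted cells. MEG8 reached at most 5 counts and RTL1, a retrotransposon-derived protein, at most 2. These 3 genes are at or near the floor of the libraries, and no fold is given for them. MEG3 and MEG8 overlap other annotated genes on the same strand, and reads that fit more than 1 gene were not counted. Their levels may therefore be too low. The 52 snoRNA genes annotated between DLK1 and its neighbours, which are processed from the maternal transcripts, summed to between 0 and 7 counts per library, and the 53 miRNA genes to at most 1. MEG9, a further noncoding RNA of the cluster, had 24 and 17 counts in WT and between 9 and 42 in the other libraries. Unlike MEG9, MEG3 and MEG8 were at or near the floor in WT as well as in CHD7 knockout and HERVH knockdown cells.

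DLK1 encodes a membrane-bound Notch ligand family protein that restrains differentiation, and it was the imprinted gene with the largest difference. It had 68 and 41 counts in WT (3.14 and 1.92 CPM), 5 and 19 in CHD7 knockout (0.231 and 1.02 CPM), 28 and 46 in HERVH knockdown (1.53 and 3.35 CPM), and 124 and 65 in HERVH element deleted cells (5.30 and 3.51 CPM). Both CHD7 knockout libraries were the lowest of the 8, and both HERVH element deleted libraries were the highest. The log2 fold change in CHD7 knockout against HERVH element deleted cells was -2.85 (SE 0.576, 95% interval -4.08 to -1.61, FDR = 0.0157), beside 2.66% of all genes with FDR below 0.05 in that comparison. Against WT it was -2.04 in CHD7 knockout (SE 0.585, FDR = 0.114) and 0.80 in HERVH element deleted cells (SE 0.493, FDR = 1). Without CHD7 knockout replicate 1, the library with 5 counts, the FDR was 0.204 against HERVH element deleted cells and 0.655 against WT; without HERVH element deleted replicate 1 it was 0.171. Wherever a library is left out here, its group is a single library that is assumed to vary like the other groups.

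**Figure D3:**
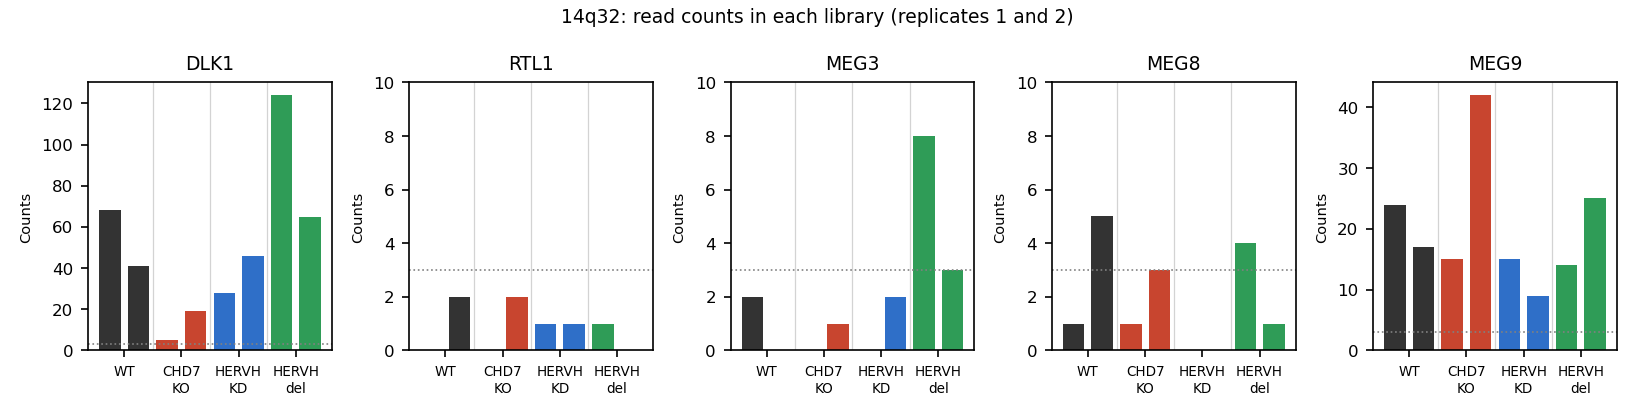
Read counts of 5 genes of 14q32 in each library, 2 bars per group, with a dotted line at 3 counts; RTL1, MEG3 and MEG8 share an axis that ends at 10 counts. DLK1 ranged from 5 to 124 counts, and MEG3 reached 8 counts in HERVH element deleted replicate 1 only.

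At 11p15, which holds 2 neighbouring imprinted domains, no gene passed the test in any comparison. H19, a maternally expressed noncoding RNA, was at 4.71 and 4.68 CPM in WT, 4.71 and 3.77 in CHD7 knockout, 6.30 and 7.06 in HERVH knockdown, and 5.22 and 3.67 in HERVH element deleted cells. Both HERVH knockdown libraries lay above both WT libraries, with a log2 fold change of 0.51 (SE 0.283, FDR = 0.354). Its reciprocally imprinted partner IGF2, the growth factor, had between 5 and 20 counts in the 8 libraries and an interval wider than 2-fold in every comparison. IGF2 overlaps a readthrough gene, INS-IGF2, on the same strand, and reads that fit both were not counted, so its level may be too low.

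KCNQ1OT1, the paternally expressed antisense RNA that silences the neighbouring domain, had more reads than the 4 listed maternal genes of the domain, over a merged exon length of 92625 bases. Exon lengths came from a later annotation than the one counted, so orders by level per kilobase are uncertain. Per kilobase of exon the WT level of KCNQ1OT1, 2.05 CPM per kb, was below those of CDKN1C (2.57) and PHLDA2 (2.87). It was at 202 and 177 CPM in WT, 171 and 249 in CHD7 knockout, 166 and 155 in HERVH knockdown, and 187 and 174 in HERVH element deleted cells. The ranges overlapped except for the HERVH knockdown, which lay below WT by 0.24 on the log2 scale (95% interval -0.62 to 0.13). The 4 maternally expressed genes of the domain were between 1 and 10 CPM in most libraries: CDKN1C, a cyclin-dependent kinase inhibitor, averaged 6.36 CPM in WT, SLC22A18, a transporter, 4.81, KCNQ1, a potassium channel, 2.72, and PHLDA2, a growth-restricting placental gene, 2.64. KCNQ1 and KCNQ1OT1 overlap on opposite strands, and whether reads were counted by strand is not given in the sources used here, so their counts cannot be fully told apart. The same holds for UBE3A and SNHG14, SGCE and PEG10, NNAT and BLCAP, and for GNAS and MEST with their antisense genes.

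Of these genes, PHLDA2 and KCNQ1 had the largest fitted differences, both in HERVH knockdown cells. PHLDA2 was at 3.23 and 9.76 CPM there and at 3.51 and 1.78 CPM in WT. The high value belonged to replicate 2, the library with the high collagen counts, and the part of that difference in the result was not tested. Its log2 fold change of 1.28 (SE 0.539, FDR = 0.219) was 1.85 (FDR = 0.00831) without HERVH knockdown replicate 1 and 0.29 (FDR = 0.786) without replicate 2. KCNQ1 went the other way at 0.712 and 1.68 CPM against 3.23 and 2.20 in WT libraries, or -1.22 on the log2 scale (SE 0.534, FDR = 0.234).

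In the 15q11 cluster, whose paternal genes are lost in Prader-Willi syndrome and whose maternal gene UBE3A is lost in Angelman syndrome, the same paternal genes were above the floor in every group. NDN, which encodes the growth suppressor necdin, and SNRPN, a spliceosomal protein gene, were expressed, whereas MAGEL2, a ubiquitin ligase regulator, had at most 2 counts and MKRN3, a brake on puberty, at most 1 count in any library. The RefSeq promoter windows of these genes are shown because they share a cluster and an expressed parental copy while only NDN and SNRPN were counted above the floor. MAGEL2 overlaps another annotated gene on the same strand, and reads that fit both were not counted, so its level may be too low. Each window runs from 250 bases before to 50 bases after the transcription start on GRCh38.p14, is written 5′ to 3′ on the strand of the gene, and has in capitals the hexamer TGCCGC or its reverse complement GCGGCA, which is recognised by the imprint-protecting factor ZFP57 when its CpG is methylated.
NDN (chr15:23687256-23687555, minus strand): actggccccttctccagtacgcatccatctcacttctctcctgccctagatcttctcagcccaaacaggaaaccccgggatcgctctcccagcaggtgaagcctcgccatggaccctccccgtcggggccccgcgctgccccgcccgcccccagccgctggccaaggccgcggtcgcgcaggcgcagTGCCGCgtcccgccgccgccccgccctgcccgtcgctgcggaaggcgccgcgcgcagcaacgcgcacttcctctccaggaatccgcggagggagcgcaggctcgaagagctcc
SNRPN and SNURF, shared start (chr15:24954737-24955036, plus strand): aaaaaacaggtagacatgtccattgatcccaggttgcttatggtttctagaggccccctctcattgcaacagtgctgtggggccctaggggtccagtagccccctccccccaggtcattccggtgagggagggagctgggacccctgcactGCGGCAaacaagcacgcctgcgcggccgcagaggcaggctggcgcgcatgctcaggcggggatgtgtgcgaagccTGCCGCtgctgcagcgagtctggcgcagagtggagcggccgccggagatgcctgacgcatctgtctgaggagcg
MAGEL2 (chr15:23647818-23648117, minus strand): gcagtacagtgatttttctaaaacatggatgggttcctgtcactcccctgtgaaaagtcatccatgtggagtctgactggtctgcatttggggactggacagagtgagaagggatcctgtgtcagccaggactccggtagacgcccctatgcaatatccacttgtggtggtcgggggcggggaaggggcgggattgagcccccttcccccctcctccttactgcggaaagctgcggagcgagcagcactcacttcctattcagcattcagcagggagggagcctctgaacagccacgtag
MKRN3 (chr15:23565424-23565723, plus strand): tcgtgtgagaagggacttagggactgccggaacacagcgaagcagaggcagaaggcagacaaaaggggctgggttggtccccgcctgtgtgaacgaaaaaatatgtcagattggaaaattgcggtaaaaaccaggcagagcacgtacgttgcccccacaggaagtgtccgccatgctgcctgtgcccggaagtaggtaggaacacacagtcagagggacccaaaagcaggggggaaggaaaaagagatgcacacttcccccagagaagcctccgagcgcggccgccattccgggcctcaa

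The NDN window held 35 CpG dinucleotides and 1 hexamer, and the shared SNRPN and SNURF window held 18 CpG and 2 hexamers. The MAGEL2 window held 9 CpG and the MKRN3 window 15 CpG, both with 0 hexamers. SNRPN has 3 other windows in RefSeq, with 7, 2 and 11 CpG and with 0, 0 and 1 hexamers. Over the windows of the listed genes, several from 1 gene, the hexamer was in 17 of 43 of genes passing the filter. It was in 4 of 7 windows of genes below the filter. These were a DIRAS3 window and overlapping windows of MEG3 that hold the same hexamer. The median CpG count was 18 in windows of genes passing the filter and 17 in those of genes below it. Over 35116 RefSeq promoter windows of this length the median was 14 CpG, and 16.7% held the hexamer on either strand. DNA methylation was not measured in these libraries, and no match says only that these letters are not in the window.

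None of the 4 tested genes of 15q11 passed the test in any comparison. NDN was at 19.1 and 19.8 CPM in WT, 19.4 and 19.2 in CHD7 knockout, 18.0 and 33.2 in HERVH knockdown, and 15.5 and 15.2 in HERVH element deleted cells. The value of 33.2 came from HERVH knockdown replicate 2, and the log2 fold change of 0.39 (FDR = 0.413) was -0.11 without that library. SNRPN lay between 15.6 and 26.4 CPM and its widest pair was the pair of WT libraries. SNURF, encoded by the same upstream exons as SNRPN, lay between 0.874 and 3.14 CPM. The 2 genes overlap on 1 strand, and ambiguous reads, which fit more than 1 gene, were left out. The levels of both may therefore be too low. UBE3A, the maternal gene, was at 160 and 148 CPM in WT, 179 and 151 in CHD7 knockout, 191 and 155 in HERVH knockdown, and 171 and 164 in HERVH element deleted cells. The CHD7 knockout and HERVH knockdown ranges overlapped that of WT and the HERVH element deleted range lay just above it, and the log2 fold changes against WT were 0.10, 0.17 and 0.12 (FDR = 0.909, 0.584 and 1). The annotated span of the paternal transcript SNHG14 overlaps UBE3A on the opposite strand. SNHG14 was at 1118 to 1400 CPM in the 8 libraries, counted over the whole gene, and its level across UBE3A was not measured.

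SNHG14 is the host of the SNORD116 snoRNAs, the minimal region of Prader-Willi syndrome. The 25 SNORD116 genes annotated summed to 216 and 211 CPM in WT, 190 and 180 in CHD7 knockout, 148 and 148 in HERVH knockdown, and 204 and 183 in HERVH element deleted cells. Both HERVH knockdown libraries were the lowest of the 8, whereas SNHG14 in them, at 1160 and 1277 CPM, lay within the WT range. PWAR6, a noncoding RNA of the same stretch, was at 156 and 109 CPM in HERVH knockdown and at 160 and 210 in WT. Of 24 SNORD116 genes tested in HERVH knockdown against WT, 8 were higher and 16 lower (median log2 fold change -0.0925). Against the same WT libraries 4 were higher and 20 lower in CHD7 knockout cells (median -0.326) and 6 higher and 18 lower in HERVH element deleted cells (median -0.203), with 0 at FDR below 0.05 in either. In the knockdown 3 had FDR below 0.05, beside 2.15% of all genes. These were SNORD116-18 (log2 fold change -0.97, SE 0.228, FDR = 0.0444), SNORD116-19 (-0.86, SE 0.201, FDR = 0.0434) and SNORD116-26 (-0.97, SE 0.226, FDR = 0.0426), none of them a DEG, and they were looked at after their values were seen. Without WT replicate 1 the FDR of the 3 genes was 0.425, 0.326 and 0.486. The copies are near identical, and reads that align to several are not counted, so values of single copies are uncertain.

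**Figure D4:**
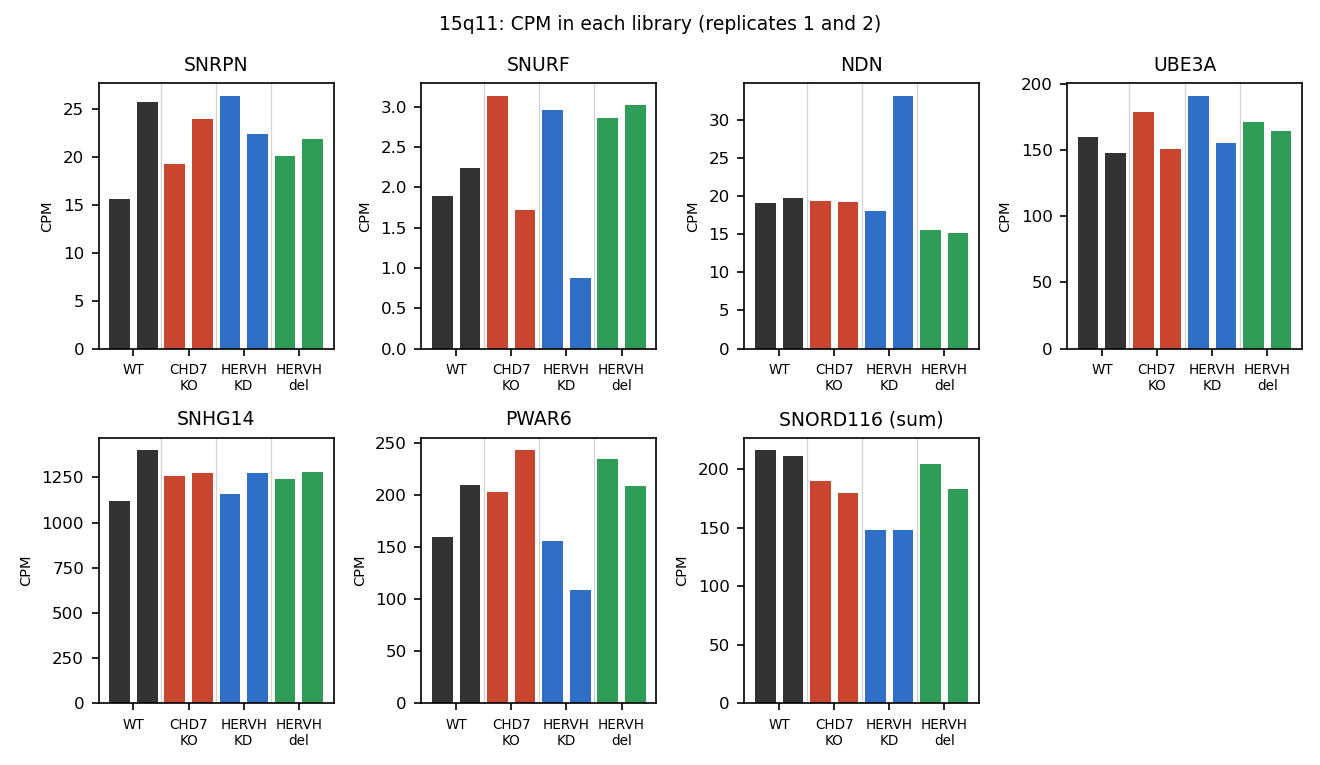
CPM of 15q11 genes in each library, 2 bars per group, each panel with its own axis from 0. The summed SNORD116 genes were lowest in both HERVH knockdown libraries, at 148 CPM, and UBE3A and SNHG14 lay in similar ranges in all 4 groups.

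The chromosome 7 clusters held some of the most abundant imprinted transcripts. PEG10, a retrotransposon-derived gene of placenta formation, had the highest WT level per kilobase of exon of the set, 57.5 CPM per kb, followed by MEST at 39.3, GNAS at 33.9 and NNAT at 25.3. This order is uncertain, as exon lengths came from a later annotation than the one counted. PEG10 was at 398 and 371 CPM in WT, 333 and 327 in CHD7 knockout, 520 and 377 in HERVH knockdown, and 425 and 383 in HERVH element deleted cells. The CHD7 knockout libraries lay below the other 6, by 0.22 on the log2 scale against WT (95% interval -0.57 to 0.13). Its divergently transcribed neighbour SGCE, a sarcoglycan, averaged 21.3 CPM in WT and 17.2 in the knockout, or -0.31 on the log2 scale (FDR = 0.737). PPP1R9A, the actin-binding protein neurabin of the same cluster, had a log2 fold change of 0.20 in that comparison (FDR = 0.825). MEST, an alpha/beta hydrolase gene at 7q32, was at 177 and 198 CPM in WT, 200 and 176 in CHD7 knockout, 163 and 159 in HERVH knockdown, and 194 and 193 in HERVH element deleted cells, and GRB10 at 7p12, an adaptor that dampens insulin signalling, was at 184 and 191, 169 and 168, 137 and 169, and 175 and 177 CPM in the same order. GRB10 lay below WT in all 3 other groups, with log2 fold changes of -0.16, -0.30 and -0.09 (FDR = 0.833, 0.289 and 1).

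On chromosome 20 the complex GNAS locus, which encodes the stimulatory G protein alpha subunit, was the most highly counted of the set. GNAS was at 795 and 713 CPM in WT, 794 and 694 in CHD7 knockout, 655 and 776 in HERVH knockdown, and 747 and 761 in HERVH element deleted cells, and all intervals of its log2 fold changes lay within 0.39 of 0. BLCAP, an apoptosis-related gene, was at 57 and 64.2 CPM in WT, 63.1 and 64.0 in CHD7 knockout, 73.0 and 68.5 in HERVH knockdown, and 54.4 and 55.1 in HERVH element deleted cells. NNAT, the neuronal proteolipid gene neuronatin inside its intron on the opposite strand, averaged 33.6, 38.9, 32.4 and 39.6 CPM in the 4 groups in the same order. Neither passed the test in any comparison. L3MBTL1, a chromatin compactor, averaged 30.8 CPM in WT and between 23.0 and 24.4 in the others, with log2 fold changes of -0.34, -0.43 and -0.38 (FDR = 0.759, 0.391 and 1).

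At 19q13, PEG3, a paternally expressed zinc finger gene, and ZIM2, which shares its first exons, had 0 counts in all 8 libraries, which allows a level of at most 0.128 to 0.218 CPM by counting error alone. PEG3 and ZIM2 overlap on the same strand, and reads that fit both were not counted, so this bound does not cover their shared exons. DIRAS3 at 1p31, a RAS-related growth suppressor, had at most 3 counts. These genes, with MEG3, MEG8, RTL1, MAGEL2 and MKRN3, made up the 8 that stayed below the filter, and none of them exceeded 8 counts in any library. ZFP28, a zinc finger gene within 1 Mb of PEG3 that is not on the list and was looked at after its values were seen, had 7 and 11 counts in WT, 63 and 86 in CHD7 knockout, 14 and 10 in HERVH knockdown, and 12 and 9 in HERVH element deleted cells. It was higher in CHD7 knockout cells than in WT by 3.15 on the log2 scale (SE 0.481, FDR = 0.00416). Of 319 unlisted genes tested within 1 Mb of an imprinted gene, it was the 1 DEG in CHD7 knockout cells (0.313%, beside 0.571% of all genes tested) and the osteopontin gene SPP1 near NAP1L5 the 1 DEG in HERVH knockdown cells (0.313%, beside 0.217%), and HERVH element deleted cells had 0 against WT (beside 0.0298%). CHD7 knockout against HERVH element deleted cells had 3, ZFP28, SERPINB9 and TSSC2 (0.94%, beside 1.12%).

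Of the single-gene loci, PLAGL1 and FAM50B varied the most between groups. PLAGL1, a zinc finger growth suppressor at 6q24, was at 2.86 and 2.43 CPM in WT, 1.57 and 1.78 in CHD7 knockout, 1.31 and 0.801 in HERVH knockdown, and 2.91 and 3.18 in HERVH element deleted cells. WT and HERVH element deleted libraries lay above those of both other groups. The log2 fold change was -1.30 in HERVH knockdown (SE 0.389, 95% interval -2.13 to -0.46, FDR = 0.100) and -0.66 in CHD7 knockout cells (SE 0.364, FDR = 0.583), and neither passed the test. HYMAI, its noncoding partner, had no matched identifier.

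FAM50B, a retrogene at 6p25, was at 2.40 and 3.13 CPM in WT, 3.88 and 4.09 in CHD7 knockout, 4.54 and 4.22 in HERVH knockdown, and 1.33 and 2.0 in HERVH element deleted cells. The HERVH element deleted libraries were the lowest 2 and the HERVH knockdown libraries the highest 2 of the 8. The log2 fold change was 1.27 in CHD7 knockout against HERVH element deleted cells (SE 0.336, 95% interval 0.55 to 1.99, FDR = 0.0681) and -0.75 in HERVH element deleted cells against WT (95% interval -1.48 to -0.01, FDR = 1).

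ZDBF2 at 2q33, a paternally expressed zinc finger gene, lies on the chromosome that carries the deleted HERVH element. It was at 95.3 and 98.2 CPM in WT, 104 and 111 in CHD7 knockout, 86.0 and 80.3 in HERVH knockdown, and 105 and 95.8 in HERVH element deleted cells. The HERVH element deleted libraries overlapped WT, with a log2 fold change of 0.06 (95% interval -0.26 to 0.37). INPP5F, an inositol phosphatase at 10q26, was at 170 and 174 CPM in WT, 173 and 172 in CHD7 knockout, 172 and 131 in HERVH knockdown, and 182 and 163 in HERVH element deleted cells. NAP1L5, a nucleosome assembly retrogene at 4q22, had between 12 and 31 counts, too few to bound a 2-fold change.

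A second list held 84 further imprinted genes, of which 51 were tested. None was a DEG in any of the 4 comparisons (edgeR quasi-likelihood test), and none met the definition of a switch. At an unadjusted p below 0.05 there were 4, 12, 1 and 5 (7.84%, 23.5%, 1.96% and 9.8%), beside 10.9%, 19%, 2.63% and 12.2% of all genes tested. DESeq2 called 1, 1, 0 and 0 of the 51, beside 286, 373, 14 and 410 of the 23474. The gene called by DESeq2 was SLC22A3 in both cases, an organic cation transporter of the IGF2R cluster named after its values were seen. It was at 4.02 and 6.17 CPM in WT, 14.1 and 10.5 in CHD7 knockout, 10.3 and 13.2 in HERVH knockdown, and 7.10 and 5.67 in HERVH element deleted cells. All 4 CHD7 knockout and HERVH knockdown libraries lay above the other 4. The log2 fold change was 1.27 in CHD7 knockout (SE 0.282, FDR = 0.0359 by edgeR, beside 1.81% of all genes with FDR below 0.05) and 1.20 in HERVH knockdown (SE 0.284, FDR = 0.0455). Both values were set against the same 2 WT libraries, and without WT replicate 1 the FDR in HERVH knockdown was 0.488; without CHD7 knockout replicate 1 the FDR in CHD7 knockout was 0.395.

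Among 36 genes that set, keep or erase imprints, 27 were tested. In CHD7 knockout, HERVH knockdown and element deleted cells against WT, 24, 24 and 26 of them had an interval within 2-fold of no change. These were 88.9%, 88.9% and 96.3%, beside 50.1%, 44.8% and 55.6% of all genes tested. Interval width depended on the level of the gene, and levels were not matched between the list and all genes. DPPA3 encodes Stella, an oocyte and germ cell protein that shields imprinted regions from TET-driven demethylation, and it was the DEG of the list. It was called in CHD7 knockout against WT and against HERVH element deleted cells, beside 0.571% and 1.12% of all genes tested. The list was chosen with earlier results of these data known. DPPA3 had 15 and 18 counts in WT, 261 and 259 in CHD7 knockout, 7 and 4 in HERVH knockdown, and 20 and 13 in HERVH element deleted cells. Both CHD7 knockout libraries lay far above the other 6. Fitted over the 8 libraries, the knockout differed by 4.07 on the log2 scale from WT (SE 0.336, 95% interval 3.35 to 4.79, FDR = 2.13e-05) and 4.04 against HERVH element deleted cells (FDR = 1.66e-05). In HERVH knockdown cells it was -1.15 (SE 0.460, FDR = 0.198). DPPA3 has processed pseudogenes, 1 of which, DPPA3P2, had 7 and 11 counts in CHD7 knockout cells and at most 4 elsewhere.

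GDF3, a TGF-beta family ligand next to DPPA3 on chromosome 12 and named after its values were seen, also rose in CHD7 knockout cells. It had 55 and 72 counts in WT, 948 and 793 in CHD7 knockout, 63 and 54 in HERVH knockdown, and 48 and 50 in HERVH element deleted cells. The log2 fold change in CHD7 knockout cells was 3.87 (SE 0.249, FDR = 3.2e-06), and in HERVH knockdown cells it was 0.32 (FDR = 0.536). NANOG, in the same stretch of 250000 bases to either side of DPPA3, averaged 77.8 CPM in WT and 81.7 in CHD7 knockout cells (0.07 on the log2 scale, 95% interval -0.29 to 0.43). On GRCh37, DPPA3 lies at chr12:7864029-7870155 and GDF3 at chr12:7842380-7848371.

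SETDB1, the histone H3K9 methyltransferase recruited by KAP1, was the other regulator with FDR below 0.05, at a log2 fold change of 0.74 in CHD7 knockout cells (SE 0.159, FDR = 0.0313, beside 1.81% of all genes with FDR below 0.05). It lies on the long arm of chromosome 1, where 1043 tested genes had a median of 0.526 on the log2 scale in the knockout against -0.026 for the rest, and the part of that shift in the SETDB1 value was not tested. DNMT1, the maintenance methyltransferase, averaged 378, 376, 394 and 398 CPM in WT, knockout, knockdown and element deleted cells. ZFP57 had between 15 and 44 counts in the 8 libraries. In HERVH knockdown cells 9 of the 27 (33.3%) had an unadjusted p below 0.05, beside 19% of all genes tested, and 0 an FDR below 0.05; the lowest FDR, 0.055, was that of DNMT3A, a de novo methyltransferase, at 260 CPM against 172 in WT (log2 fold change 0.59, SE 0.148).

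**Figure D5:**
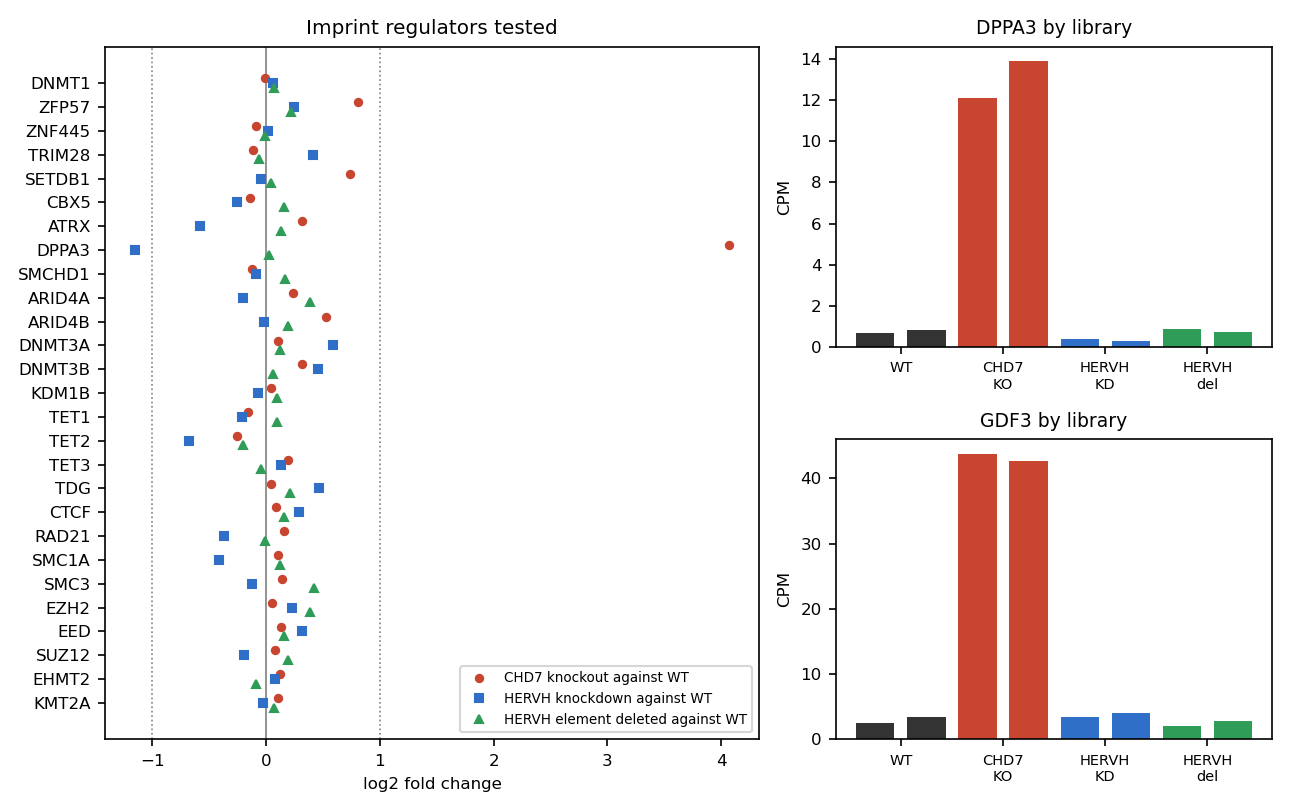
Left, log2 fold change against WT of the 27 imprint regulators tested, with dotted lines at a 2-fold change; right, CPM of DPPA3 and its neighbour GDF3 in each library. DPPA3 lies at 4.07 in CHD7 knockout cells, and the other regulators lie within 2-fold of WT except DPPA3 in HERVH knockdown cells at -1.15.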

How the data were processed

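RNA was depleted of ribosomal RNA and made into strand-specific libraries. Per the labels and the study's methods, the authors used STAR for alignment to hg19 and HTSeq for counting over Ensembl genes, and the deposited files hold raw read counts per gene; tool versions and the strand setting of the counting are not given in the sources used here. Rows that name no gene were left out, of which reads in no gene made up 34.9% to 42.5% and ambiguous reads 3.81% to 4.75% of the reads assessed.

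Identifiers were matched to symbols with GENCODE v44 on GRCh37, on which 96.1% of the 57773 genes were placed, and with RefSeq names. Levels are CPM on TMM-scaled library sizes, and CPM per kb divides by merged exon length. These lengths are from GENCODE v44, a later annotation than the Ensembl genes counted, and may include exons that were not counted. Counts were fitted in edgeR 4.0.16 (filterByExpr, TMM, glmQLFit, glmQLFTest) over all 8 libraries with group as the only term, which left 4 residual degrees of freedom, and FDR was adjusted over the 23474 genes tested. A DEG had FDR below 0.01 and at least 2-fold. DESeq2 1.42.0, other scaling, filters, sample sets, a replicate block and leaving out each library were alternatives. The script was tested on simulated data. The floor of 3 counts covers counting error only.

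All 35 listed genes were accounted for; those with the highest level of their cluster, or called, were given in every library, and others by ranges. The members and lists were chosen with earlier results of these data known. Promoter windows are RefSeq on GRCh38.p14; gene positions are GRCh37. Cell type lists not described above, for neuroectoderm, endoderm, mesoderm and trophoblast, summed to at most 20.2, 12.2, 6.14 and 8.18 CPM in any library.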

Additional observations from a re-analysis of the deposited data

How the results depend on the processing

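No imprinted gene met the definition of a switch in any comparison with limits of 10 and 100 counts, or 1 and 10 counts, or without any 1 library. The number of DEGs among the imprinted genes, 0 in each comparison, rose to 1 or 2 under 6 settings. In CHD7 knockout against WT it was 1 lower (DLK1) with no filter on low counts. In HERVH knockdown against WT, leaving out 1 library gave between 0 and 1 higher, the 1 being PHLDA2 without HERVH knockdown replicate 1. In CHD7 knockout against HERVH element deleted cells it was 1 higher (FAM50B, FDR = 0.00871) with only the 4 libraries compared, and 1 lower (DLK1) with no filter (FDR = 1.02e-07), with only the 4 libraries compared (2.93e-06, so 2 in all), with DESeq2 (0.000101), and at FDR below 0.05 with no minimum fold. The cause was not tested. Fitted directions were kept under all settings for 13, 14, 15 and 14 of 26 genes in the 4 comparisons. No imprinted gene reversed in a comparison where it was a DEG under any setting. Of all genes, 134, 51, 7 and 262 were DEGs; with only the 4 libraries compared 378, 6, 6 and 622; with DESeq2 286, 373, 14 and 410; and with no filter 368, 506, 30 and 512. Leaving out HERVH knockdown replicate 1 or 2 gave 786 or 469. Same-numbered replicates did not deviate together (correlations between -0.0693 and 0.119), so the numbers were not taken as pairs; with a replicate block 153, 70, 6 and 268 genes and 0 imprinted genes were DEGs. DPPA3 and GDF3 stayed DEGs in CHD7 knockout cells under every setting.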
